A study of Mus musculus with 32 samples.

Results

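Immunoglobulin variable (V) segments were examined in bulk RNA sequencing of female mouse bladders. The rule took every row of the count table whose symbol starts with Ighv (heavy chain), Igkv (kappa light chain) or Iglv (lambda light chain) and whose counts summed to 100 or more over the 32 bladders. The members were thus selected on their summed counts, and the rule gave 186 segments out of 348 V rows in a table of 32285 genes, namely 97 heavy, 86 kappa and 3 lambda segments. Because the sum is taken over all bladders and 21 of the 32 were old, the rule favours segments with high counts in old bladders. Of the V rows left out, 81 had no count in any bladder. Just below the limit stood Ighv1-62-3 with 90 counts and Ighv1-23 with 98. Just above it stood Ighv5-12-4 with 106 counts, 100% of them in D + Q replicate 3, and Ighv4-2, annotated as a pseudogene, with 110. Most of the members (180) were annotated as V genes and 6 as pseudogenes. Pseudogene rows held between 0.0% and 0.464% of the V counts of a bladder.

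An antibody heavy chain gene is assembled in each developing B cell by joining a V, a D and a J segment, and a light chain gene by joining a V and a J segment. A B cell and all its descendants therefore transcribe a single productive heavy V segment and a single light V segment, and plasma cells, which secrete antibody, carry very large amounts of that transcript. In a whole tissue, the number of V segments with reads depends on the breadth of the repertoire present and on the number of V reads. A segment that takes a large share of a chain's reads marks cells that share that segment.

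All mice were C57BL/6 females. Untreated mice gave 6 young bladders at 2 months of age, 5 middle-aged bladders at 10 months and 6 old bladders at 26 months. A further 3 groups of the same strain and sex, also taken at 26 months, had been gavaged from 21 to 26 months of age on 3 consecutive days of each month. They received water (n = 5), the vehicle of 60% Phosal 50 PG, 30% PEG 400 and 10% ethanol (n = 4), or dasatinib at 5 mg/kg/day with quercetin at 50 mg/kg/day (D + Q, n = 6), a senolytic pair of compounds given to remove senescent cells. Whole bladders were used, so that urothelium, muscle, stroma and any resident or attached lymphoid tissue were sequenced together. The labels name no batch. Each library was a bladder of its own, and p-values measure the spread between these bladders.

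Library totals lay between 15088372 and 52650259 counts. The summed level of 6 urothelial genes ran from 3512 to 4714 CPM (counts scaled to the effective library size) over all bladders and that of 4 detrusor muscle genes from 21180 to 30790, so that every library carried the defining transcripts of bladder. Some libraries stood apart. Vehicle replicate 1 had 2252 V counts (54.2 CPM), whereas the other vehicle bladders had 2155, 3263 and 3013 CPM. Its level of Jchain, which encodes the joining chain of secreted IgM and IgA, was 5.52 CPM, below every other old bladder, while Ms4a1 (CD20, a surface marker of B cells) was 7.76 CPM and lay within the old range of 5.49 to 77.8. Old untreated replicate 6 was the opposite, with 374599 V counts (7137 CPM), and it held the largest count of 65 of the 186 members. Results that rest on these bladders are given with and without them.

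A selection of segments that took large shares of a chain in single bladders is shown here, each as the last 120 coding bases of the annotated germline segment, 5′ to 3′ on the coding strand (GRCm38, the build named mm10 in the submitters' processing notes, with GENCODE gene models). The capitals mark the stretch from the codon of the conserved second cysteine to the end of the segment, which is where the third complementarity-determining region, the part joined to D or J, begins. Igkv3-2 lies at chr6:70698948-70699067 on the plus strand and Igkv17-127 at chr6:67861540-67861659 on the plus strand. The others lie on the minus strand, Igkv12-89 at chr6:68834846-68834965, Igkv8-24 at chr6:70216858-70216977, Igkv4-55 at chr6:69607275-69607394, Ighv10-3 at chr12:114523441-114523560, Ighv1-53 at chr12:115158403-115158522, Ighv1-55 at chr12:115208095-115208214, Ighv1-76 at chr12:115847881-115848000, Ighv8-8 at chr12:115294062-115294181 and Iglv1 at chr16:19085017-19085136. Every window lies in the last coding exon of its segment.
Igkv3-2: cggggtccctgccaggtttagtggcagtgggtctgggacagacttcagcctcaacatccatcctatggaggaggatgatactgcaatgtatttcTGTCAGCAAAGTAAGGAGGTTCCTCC
Igkv12-89: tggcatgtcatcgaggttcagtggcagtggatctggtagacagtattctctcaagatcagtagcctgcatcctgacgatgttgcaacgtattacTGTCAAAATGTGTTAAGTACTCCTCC
Igkv17-127: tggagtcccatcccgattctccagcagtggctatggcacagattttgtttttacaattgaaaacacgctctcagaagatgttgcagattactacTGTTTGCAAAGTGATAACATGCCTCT
Igkv8-24: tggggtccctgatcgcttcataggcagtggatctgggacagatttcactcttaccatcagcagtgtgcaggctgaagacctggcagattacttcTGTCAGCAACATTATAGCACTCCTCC
Igkv4-55: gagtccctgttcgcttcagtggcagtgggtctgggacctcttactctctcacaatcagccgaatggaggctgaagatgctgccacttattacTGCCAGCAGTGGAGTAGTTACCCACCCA
Iglv1: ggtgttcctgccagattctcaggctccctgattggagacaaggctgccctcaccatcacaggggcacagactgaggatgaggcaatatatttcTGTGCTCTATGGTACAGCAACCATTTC
Ighv1-53: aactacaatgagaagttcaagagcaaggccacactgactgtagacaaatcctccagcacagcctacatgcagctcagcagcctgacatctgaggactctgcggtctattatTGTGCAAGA
Ighv1-55: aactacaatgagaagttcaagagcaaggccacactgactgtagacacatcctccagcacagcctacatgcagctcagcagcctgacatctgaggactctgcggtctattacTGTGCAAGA
Ighv1-76: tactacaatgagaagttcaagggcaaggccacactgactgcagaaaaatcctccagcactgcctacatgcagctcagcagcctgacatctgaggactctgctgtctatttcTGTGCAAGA
Ighv10-3: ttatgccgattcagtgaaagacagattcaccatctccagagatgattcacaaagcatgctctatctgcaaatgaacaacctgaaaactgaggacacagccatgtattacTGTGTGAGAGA
Ighv8-8: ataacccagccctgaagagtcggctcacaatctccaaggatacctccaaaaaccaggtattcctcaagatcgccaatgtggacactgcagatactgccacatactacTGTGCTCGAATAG

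The 3 Ighv1 windows are alike over most of their length, and the closeness of V segments limits how far a read can be given to 1 row. Identity was taken over the aligned bases of the coding sequences, or of the transcript where no coding part is annotated. Ighv1-53 was 95.4% identical to Ighv1-55 and 88.8% identical to Ighv1-76, and its nearest relative among V rows was Ighv1-62 at 96.6%. Igkv3-2 was 92.8% identical to its nearest relative, Igkv3-1, and Iglv1 97.1% identical to Iglv2 but 60.8% identical to Iglv3. Over the 186 members the median identity to the nearest other V row was 95.5%, with 102 members at 95% or more and 2 at 100%. Counts of close relatives are therefore uncertain as to which copy they belong to.

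V transcripts were scarce in young bladders, more abundant in middle-aged ones and far more abundant in old ones, and the untreated groups did not overlap at either step. Summed over all V rows, the level in young bladders ran from 2.7 CPM to 9.20 with a median of 4.82, which came to between 45 and 316 counts in a library. The middle-aged bladders held 145.5, 13.7, 163.3, 31.1 and 142.0 CPM. The untreated old bladders ran from 874.3 CPM to 7137 with a median of 1512. Replicates 2 and 4 were the low middle-aged bladders, and the lowest untreated old bladder was above the highest middle-aged one. On the log2(CPM + 0.1) scale the mean was 2.33 ± 0.593 (SD, n = 6) in young, 6.09 ± 1.62 (n = 5) in middle-aged and 10.8 ± 1.10 (n = 6) in old bladders. The difference was 3.76 from young to middle-aged and 4.76 from middle-aged to old. Both had a two-sided exact permutation p of 0.00433, the smallest that 5 against 6 bladders can give, and a Benjamini-Hochberg adjusted p of 0.0336 over the 31 tests of this kind. Without old replicate 6 the second difference was 4.37. With a bladder of the compared groups left out, the adjusted p lay above 0.05 at either step, except at the second without old replicate 3. The smallest exact p is larger with fewer bladders. In a bulk sample, fewer cells of a type and less RNA per cell cannot be told apart.

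More segments were detected at each age. A segment was taken as detected in a bladder at 3 or more counts, which corresponded to 0.0873 to 0.205 CPM in the young libraries and 0.0572 to 0.159 in the 21 old ones. Young bladders had from 7 to 20 detected members with a median of 11.5. Middle-aged bladders had 79, 23, 80, 53 and 94, and untreated old bladders from 131 to 179 with a median of 148. The 3 untreated age groups did not overlap. Since the members were chosen on their summed counts, the test was taken on all 348 V rows, of which 12.2 were detected on average in young, 66.0 in middle-aged and 159.3 in old bladders. Middle-aged exceeded young bladders by 53.8 rows and old exceeded middle-aged bladders by 93.3 (both exact permutation p = 0.00433, adjusted p = 0.0336), or by 84.4 without old replicate 6 (exact permutation p = 0.00794, adjusted p = 0.0615). Of the 186 members, 51 reached 3 counts in at least 1 young bladder, 133 in a middle-aged one and 184 in an old untreated one. None did so in every young bladder, 7 did in every middle-aged bladder, 92 in every old untreated bladder and 39 in all 21 old bladders. These counts follow the depth of V reads, and the comparison at an equal number of V reads is given further on.

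**Figure D1:**
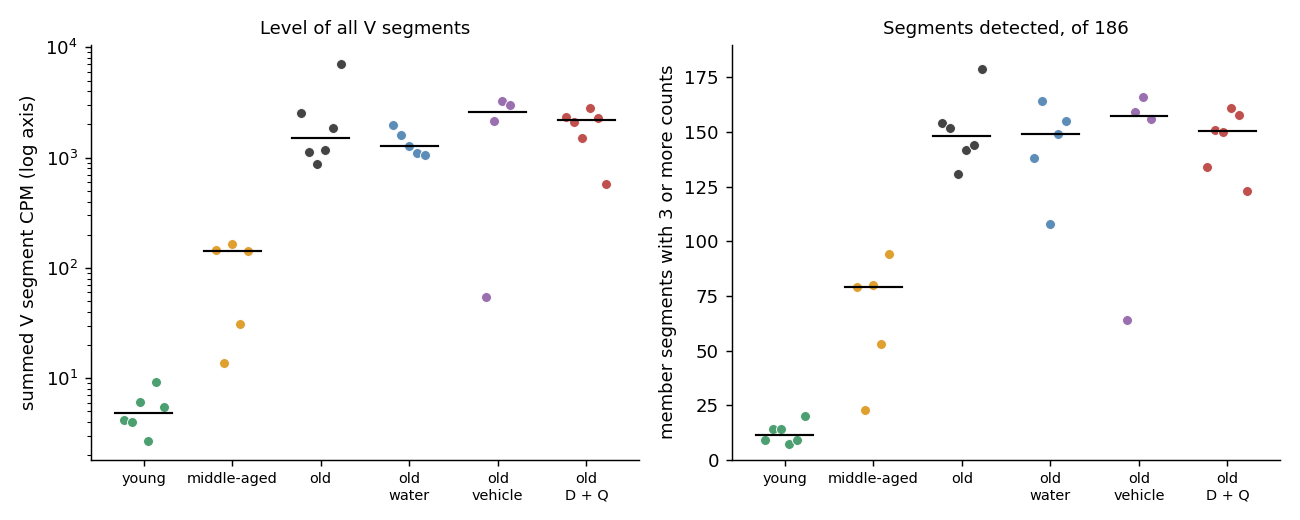
Summed V level in CPM on a log axis, and the number of member segments with 3 or more counts, for each of the 32 bladders by group, with black lines at the group medians. Young, middle-aged and old untreated bladders occupy separate ranges in both panels, and vehicle replicate 1, at 54.2 CPM and 64 segments, lies within the middle-aged ranges and below all other old bladders.

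Igkv3-2, a member of the kappa V family 3, was the leading light chain segment of the old bladders. It ranked first among kappa segments in 15 of the 21 old bladders, that is in 5 of 6 untreated, 4 of 5 water, 2 of 4 vehicle and 4 of 6 D + Q bladders, and in 1 middle-aged bladder. Its level was 6.49, 0.032, 0.246, 1.22 and 28.4 CPM in the middle-aged bladders. In the untreated old bladders it ran from 101.1 to 1427 CPM with a median of 401.9. The young bladders held 1 count of it in all. The highest middle-aged bladder was below the lowest untreated old one. Among the gavaged bladders, vehicle replicate 1 held 89 counts of Igkv3-2, below the 1046 counts of middle-aged replicate 5. As a share of kappa V counts Igkv3-2 made up 6.86%, 0.472%, 0.242%, 6.83% and 32% in the middle-aged bladders. In the untreated old ones the share ran from 18.3% to 48.6% with a median of 41.1%, and the ranges overlapped through middle-aged replicate 5. In the edgeR fit over all genes its level rose from middle-aged to old by 6.32 ± 1.06 (log2, SE) with an adjusted p of 0.00103, or by 8.26 without middle-aged replicate 5.

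The share of Igkv3-2 varied widely among the gavaged old bladders. With water it was 71.5%, 22.8%, 38.3%, 21.2% and 50.8% of kappa V counts, and with vehicle 6.17%, 25.2%, 53.5% and 18.0%. With D + Q it ran from 9.85% to 58.5% with a median of 23.1%. Each gavaged group held bladders above and below the median of the untreated group.

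Ighv1-53, of the large heavy chain family 1, had the corresponding place among heavy segments but a smaller share. It ranked first in 9 of the 21 old bladders (2 untreated, 3 water, 1 vehicle and 3 D + Q) and in none of the others, and no young bladder held a count of it. Its level was 4.63, 0.032, 9.94, 0.305 and 4.21 CPM in the middle-aged bladders. In the untreated old ones it ran from 23.1 to 314.7 CPM with a median of 78.3, without overlap between these 2 groups. Its share of heavy V counts was 9.63%, 0.568%, 16.9%, 2.64% and 8.13% in the middle-aged bladders. In the untreated old ones the share ran from 6.00% to 19.8% with a median of 14.0%, which overlapped. The rise in level from middle-aged to old was 4.86 ± 0.875 (log2, SE; edgeR adjusted p = 0.00158), with 5.61 without middle-aged replicate 3 and 4.2 without old replicate 6. Over the 21 old bladders the share ran from 5.30% in vehicle replicate 1 to 35.5% in water replicate 1. Water replicate 1 also had the highest share of Igkv3-2, and over the 21 old bladders the shares of the 2 segments had a Pearson correlation of 0.688 and a Spearman correlation of 0.605, given as a description of bladders that belong to 4 groups.

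**Figure D2:**
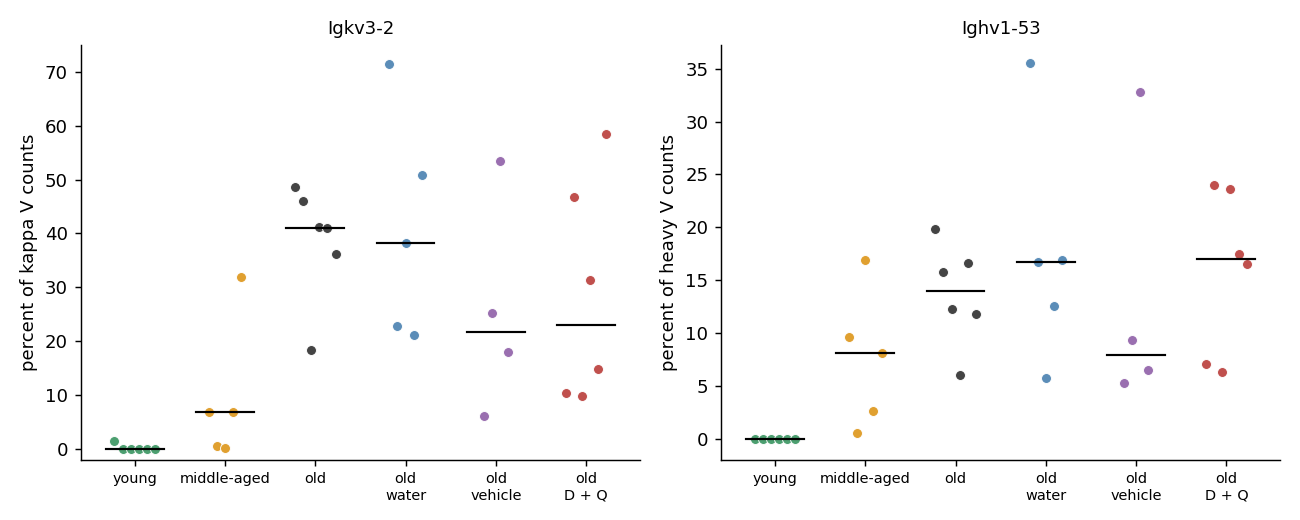
Igkv3-2 as a percentage of the kappa V counts and Ighv1-53 as a percentage of the heavy V counts in each bladder by group, with black lines at the group medians. The old untreated medians are 41.1% for Igkv3-2 and 14.0% for Ighv1-53, and the gavaged old bladders spread from 6.17% to 71.5% and from 5.30% to 35.5%.

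In D + Q replicate 1 and water replicate 3 another segment took most of a chain. In D + Q replicate 1, Ighv1-55 held 71.8% of heavy V counts (95% Wilson interval 71.2% to 72.3%; 18786 counts) and Igkv12-89 held 69.3% of kappa V counts (68.8% to 69.7%; 34097 counts). The shares of the same segments over the old untreated bladders ran from 0.453% to 7.04% for Ighv1-55 and from 0.026% to 18.6% for Igkv12-89. These intervals cover counting error only, since reads are not independent molecules. In water replicate 3, Ighv1-76 held 74.7% of heavy V counts (74.1% to 75.3%) and the lambda segment Iglv1 had 15164 counts, more than any kappa segment of that bladder. The next highest share of Ighv1-76 was 10.95% in old untreated replicate 2.

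The other large shares in old bladders were below 50% of a chain, apart from those of Igkv3-2. D + Q replicate 3 had Ighv10-3 at 42.3% of heavy (41.5% to 43.2%) and Igkv4-55 at 34.6% of kappa V counts (34.1% to 35.1%). Vehicle replicate 1, with its low V total, had Ighv1-55 at 43.8% (40.2% to 47.4%) and Igkv17-127 at 46.1% (43.6% to 48.7%), and water replicate 4 had the same pair at 37.9% (37.2% to 38.6%) and 21.8% (21.4% to 22.2%). These are the bladders in which Igkv17-127 passed 10% of kappa V counts. Vehicle replicate 3 resembled water replicate 1, with Ighv1-53 at 32.8% (32.4% to 33.3%) and Igkv3-2 at 53.5% (53.2% to 53.9%). Ighv5-9 held 30.4% of heavy V counts in old untreated replicate 5, Ighv1-52 26.4% in old untreated replicate 3 and Ighv1-80 22.7% in D + Q replicate 6. Igkv1-117 held 31.0% of kappa V counts in old untreated replicate 3 and Igkv4-91 24.3% in vehicle replicate 4.

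Dominance was not limited to old bladders. Young replicate 5, with 316 V counts, had Ighv8-8 at 79.3% of heavy V counts (71.3% to 85.6%; 96 of 121 counts) and Igkv8-24 at 82.2% of kappa V counts (76.2% to 87.0%; 157 of 191 counts). The other young bladders held fewer than 100 counts of each chain and their shares were not compared. Middle-aged replicate 2, with 431 V counts, had Ighv1-11 at 26.1% of heavy and Igkv9-123 at 26.4% of kappa V counts. Middle-aged replicate 3 had Igkv8-24 at 21.1% of kappa V counts.

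**Figure D3:**
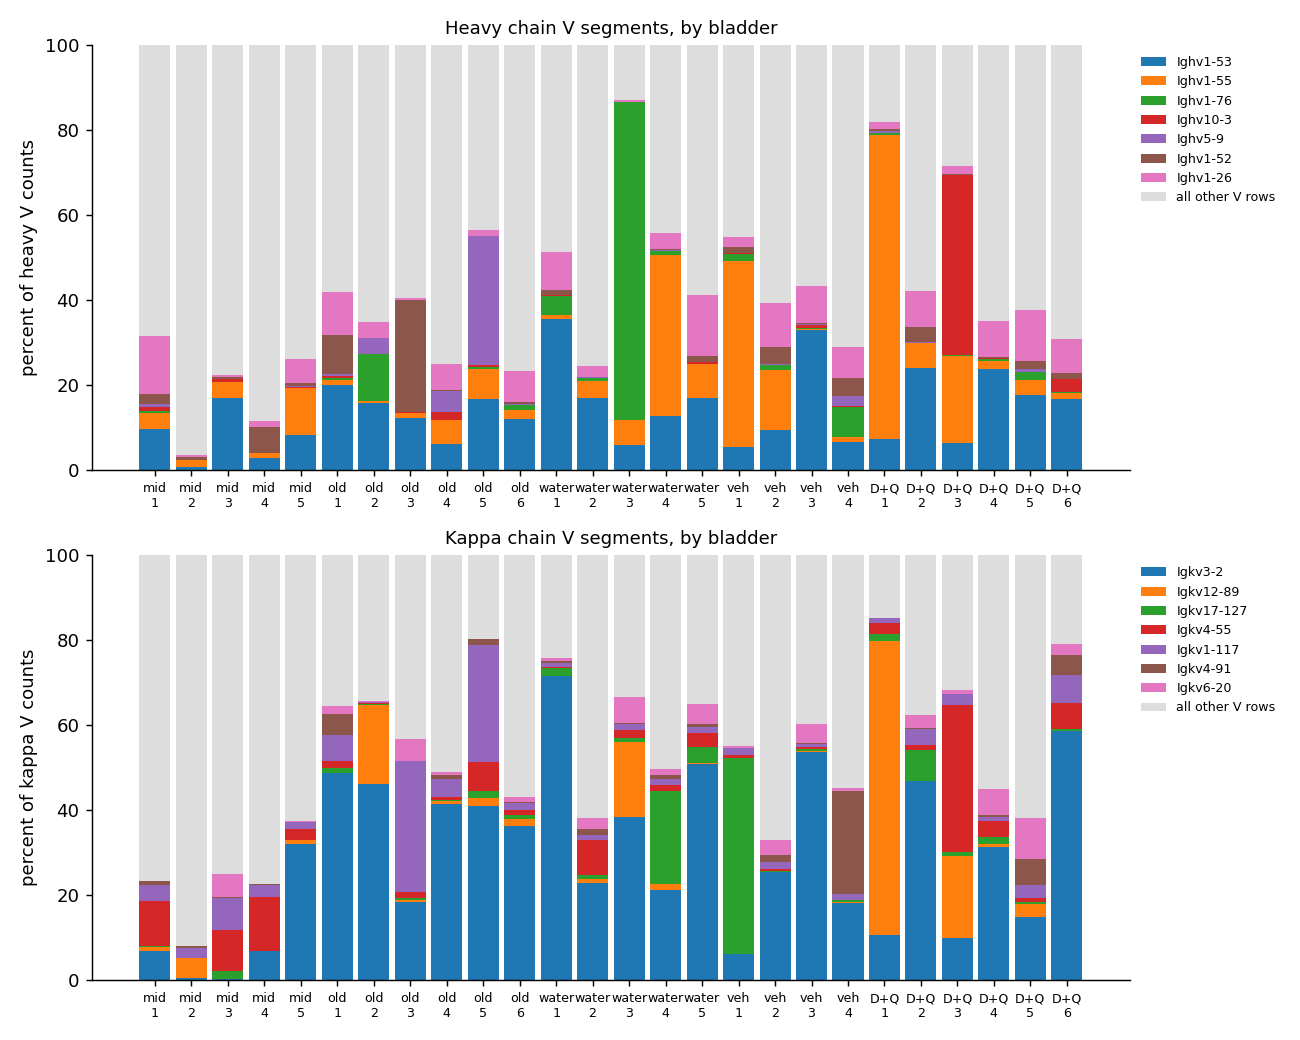
Share of heavy V counts and of kappa V counts taken by the named segments in each middle-aged and old bladder, as stacked bars from 0 to 100% with the remaining segments in grey. Igkv3-2 is present in every old bladder with between 6.17% and 71.5% of kappa V counts, whereas Ighv1-76 in water replicate 3, Ighv10-3 in D + Q replicate 3 and Igkv12-89 in D + Q replicate 1 take 74.7%, 42.3% and 69.3% of their chain.

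The share of the largest segment was compared between groups for bladders with at least 100 counts of the chain. The largest kappa share was 13.7%, 26.4%, 21.1%, 12.7% and 32% in the middle-aged bladders and ran from 31.0% to 48.6% with a median of 41.1% in the old ones. The ranges met only at middle-aged replicate 5 and old replicate 3. The mean was higher in old bladders by 19.5 percentage points (40.7 ± 6.42 against 21.2 ± 8.25, SD), with an exact permutation p of 0.00866 and an adjusted p of 0.0537, which did not pass the threshold of 0.05. The largest heavy share was 18.0%, 26.1%, 18.6%, 10.3% and 19.5% in the middle-aged bladders and ran from 11.8% to 30.4% with a median of 19.2% in the old ones. It differed by 2.05 percentage points (exact permutation p = 0.589, adjusted p = 0.964). Over the 21 old bladders the largest segment held 40% or more of its chain in 4 bladders for heavy and in 11 for kappa, and in no middle-aged bladder for either. Those for heavy were all gavaged (water replicate 3, vehicle replicate 1 and D + Q replicates 1 and 3), and no untreated old bladder passed 30.4%. Those for kappa included both untreated and gavaged bladders.

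An effective number of segments, the inverse of the summed squared shares, was computed as a description. For kappa it ran from 6.41 to 14.7 in middle-aged and from 3.84 to 6.48 in old bladders, and for heavy from 5.65 to 16.0 and from 6.75 to 16.7. The lowest values over all old bladders were 1.77 for heavy in water replicate 3 and 1.94 for kappa in water replicate 1.

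By V family, the name that groups segments of similar sequence, Ighv1 was the largest heavy family with 93 rows and 49 members. It held from 46.6% to 81.5% of heavy V counts in middle-aged bladders and from 48.7% to 81.0% in old ones, with medians of 57.6% and 72.1% and overlapping ranges. Next by their share in old bladders were Ighv14, Ighv5 and Ighv2, with medians over the 21 old bladders of 3.99%, 2.99% and 1.81%. Igkv3, with 13 rows and 8 members, held from 1.42% to 37.3% of kappa V counts in middle-aged bladders with a median of 14.3%, and from 19.2% to 53.9% in old ones with a median of 44.4%. Igkv3-2 accounted for most of that share. Along the heavy chain locus on chromosome 12, the 92 rows farther from the J segments (Ighv1-15 to Ighv1-86) held from 20.5% to 63.0% of heavy V counts in middle-aged bladders and from 48.2% to 80.6% in old ones. This stretch contains Ighv1-53, Ighv1-55 and Ighv1-76. The families and the locus were described without a test.

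Among lambda segments Iglv1 was usually the largest. The lambda locus of the mouse has few V segments, and all 3 rows of the table were members. Iglv1 was at 0.522, 0.444, 2.14, 1.64 and 0.95 CPM in middle-aged bladders and ran from 10.0 to 117.1 CPM with a median of 19.9 in untreated old ones, without overlap. It rose by 5.11 ± 0.808 (log2, SE; edgeR adjusted p = 0.000654), or by 4.43 without old replicate 5. Iglv2 had a log2 difference of 1.73 with an adjusted p of 0.219. Iglv3 was called higher at 8.85 (adjusted p = 0.0170), but its old levels were 4.43, 2.62, 5.15, 2.13, 2.40 and 468.7 CPM, and all of these were above the highest middle-aged level of 0.488. The size of that fitted difference rested on replicate 6, and without it the value was 4.23, while without middle-aged replicate 5 it was 9.79.

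Lambda as a share of light chain V counts was low in most bladders and high in a few. It was 2.81%, 16.9%, 2.39%, 8.65% and 1.68% in the middle-aged bladders, where the highest share belonged to the bladder with 255 light chain V counts. In the old bladders it ran from 0.943% to 12% with a median of 3.63%. The water bladders had 5.01%, 3.45%, 57.6%, 1.34% and 3.34%, the vehicle bladders 4.88%, 1.59%, 15.6% and 2.33%, and the D + Q bladders from 1.47% to 8.23% with a median of 2.77%. Water replicate 3 and vehicle replicate 3 were high through Iglv1, at 426.5 and 339.0 CPM. Old differed from middle-aged bladders by -1.17 percentage points (exact permutation p = 0.766, adjusted p = 0.964).

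The heavy chain share of V counts was similar in all groups. It was 33.0%, 40.8%, 36.1%, 37.1% and 36.4% in the middle-aged bladders, and in the old ones it ran from 28.0% to 37.3% with a median of 33.3%. In the young bladders with at least 100 V counts it was 35.1%, 36.6%, 38.3% and 48.7%. The groups overlapped. Old minus middle-aged was -3.92 percentage points (exact permutation p = 0.0736, adjusted p = 0.380) and middle-aged minus young -3.0 (exact permutation p = 0.444, adjusted p = 0.964). Over the 21 old bladders the share ran from 26.1% in water replicate 1 to 41.5% in water replicate 3.

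V counts were also set against the counts of the constant regions, the parts of the chains that do not vary. Kappa V counts were 0.527 to 1.5 times the Igkc counts in young bladders, 0.568 to 0.617 times in middle-aged ones and 0.483 to 0.721 times in the 21 old ones. Heavy V counts were 0.025 to 0.117 times the summed heavy constant counts in young, 0.120 to 0.171 times in middle-aged and 0.111 to 0.191 times in old bladders. The young ratios spread most for kappa and were low for heavy, and they rest on 16 to 121 heavy and 21 to 191 kappa V counts in a bladder. These ratios were not tested. Vehicle replicate 1, itself among the 21, had ratios of 0.683 for kappa and 0.134 for heavy, and the ends of both old ranges came from other bladders.

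The number of segments was also compared at an equal number of V reads. For each bladder the number of V rows expected to have a read in a draw of 500 V counts was computed from its counts. No young bladder had 500 V counts, and neither had middle-aged replicate 2. The other middle-aged bladders gave 66.9, 63.6, 64.2 and 73.3 segments, and the old ones from 55.6 to 87.9 with a median of 68.9. The middle-aged values lay within the old range. The difference was 3.09 segments (70.1 ± 10.4 against 67.0 ± 4.43, SD; exact permutation p = 0.629, adjusted p = 0.964), and it was -0.47 without old replicate 6. Without the largest heavy and the largest kappa segment of each bladder the difference was 10.2 segments (79.5 against 69.2; exact permutation p = 0.133, adjusted p = 0.591). At this number of bladders no difference between middle-aged and old bladders was detected at equal V counts. The lowest values over all old bladders belonged to water replicate 3 (40.5), D + Q replicate 1 (53.4), old replicate 5 (55.6) and water replicate 1 (55.7), and the highest to water replicate 2 (88.9) and old replicate 6 (87.9). Vehicle replicate 1, which had 64 members at 3 or more counts at its full depth, gave 63.7 by this measure and was no longer apart from the others. The 2 numbers differ in floor and in the rows counted, and at 1 or more counts it had 90 members. Middle-aged and young bladders could be compared in a draw of 100 V counts, which 5 and 4 bladders allowed. The means were 34.6 and 27.4 segments, a difference of 7.25 (exact permutation p = 0.143, adjusted p = 0.653).

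**Figure D4:**
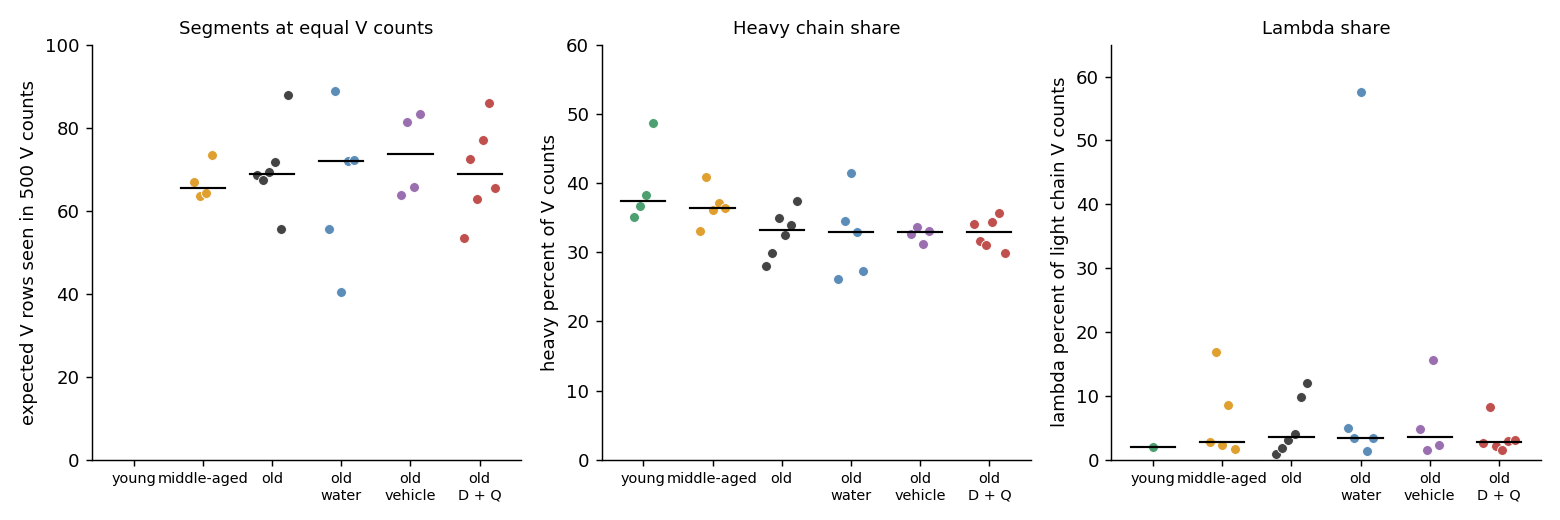
Segments expected in 500 V counts, heavy chain percentage of V counts and lambda percentage of light chain V counts for each bladder that has enough counts, by group, with black lines at the group medians. The middle-aged bladders at 63.6 to 73.3 segments lie inside the old untreated range of 55.6 to 87.9, and water replicate 3 stands alone at 57.6% lambda.

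Segment by segment, the fit over all genes (edgeR quasi-likelihood test, adjusted over all genes tested) called members higher with age and none lower. From young to middle-aged 5 of the 186 members had enough counts to be tested and 3 were called higher, where 4.96% of all genes tested were called higher and 5.85% lower. These were Iglv1 (log2 difference 3.22, adjusted p = 0.00414), Igkv1-117 (3.23, adjusted p = 0.0464) and Ighv3-6 (2.84, adjusted p = 0.0481). Iglv1 was called with each bladder left out in turn and was the one without overlap (2.77% of all genes were called higher without overlap), at 0.0348 to 0.273 CPM in young against 0.444 to 2.14 in middle-aged bladders. The calls of the other segments were lost when single bladders were left out. From middle-aged to old 104 members were tested and 67 were called higher, with 32 heavy, 33 kappa and 2 lambda segments, where 13.0% of all genes were called higher and 11.0% lower. Of the members tested 103 had a positive difference and the median was 4.24, beside -0.0047 over all genes. Since a member could pass the filter through its old counts alone, these counts describe the members and do not test them as a group.

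Of the 67 called members 19 did not overlap between the 6 old and the 5 middle-aged bladders, and 14 of these had more than 3 counts in some bladder of each group. Over all genes tested 8.35% were called higher without overlap. With each bladder left out in turn, 36 of the 67 were called in every fit, and 44 in every fit in which they passed the filter, which 9 of the 67 did not do throughout. Without old replicate 6 there were 48 calls among 90 members tested, where 1910 of 17028 genes were called higher. The segments that were highest over all bladders were mostly among the called ones. They were ranked by mean CPM over all bladders, most of which were old. High old counts thus favoured both the rank and the call, and this overlap does not test these segments as a group. Besides those above, Igkv12-89 rose by 6.60 ± 1.48 (log2, SE; adjusted p = 0.00645), or by 5.46 without old replicate 2. Igkv1-117 rose by 5.38 ± 1.08 (adjusted p = 0.00319), or by 6.36 without middle-aged replicate 3. Ighv1-26 rose by 4.78 ± 1.25 (adjusted p = 0.0146), with 3.60 without old replicate 6 (adjusted p = 0.0318) and 5.93 without middle-aged replicate 1. Igkv4-91 rose by 6.29 (adjusted p = 0.00930), with 4.68 without old replicate 1 and 7.71 without middle-aged replicate 1. Igkv19-93 was at 309.0 CPM in old replicate 6 and at 1.05 to 8.69 CPM in the other old bladders. Its rise of 6.52 (adjusted p = 0.0190) became 3.01 without that bladder (adjusted p = 0.0184). Ighv1-55 rose by 3.55 (adjusted p = 0.0221), with 3.00 without old replicate 6 (adjusted p = 0.0461) and 4.47 without middle-aged replicate 5, and its call was lost without middle-aged replicate 1 (adjusted p = 0.0516) or replicate 3 (adjusted p = 0.0508). Igkv6-20 was called at 4.07 (adjusted p = 0.0385) and lost its call in 7 of the 11 fits that left out a bladder, old replicate 6 among them (3.64, adjusted p = 0.0717). Without middle-aged replicate 3 its difference was 8.90 (adjusted p = 0.00453). Igkv4-55 had a difference of 2.49 with an adjusted p of 0.0839, and Ighv1-76 did not pass the filter.

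The largest rises without overlap were those of Ighv6-6 (9.31, adjusted p = 0.0199), Iglv3 and Ighv1-75 (7.37, adjusted p = 0.00542). Ighv6-6 was at 224.3 CPM in old replicate 6 and between 0.539 and 2.51 CPM in the other old bladders, against 0.0 to 0.109 in middle-aged ones, and its difference without replicate 6 was 4.41. Ighv1-75 ran from 0.354 to 55.6 CPM in old bladders with a median of 5.56, and its highest middle-aged level was 0.298. Its difference was 5.77 without old replicate 6 and 9.47 without middle-aged replicate 5. Igkv4-74, a member at low level, was at 0.0 CPM in 4 middle-aged bladders and 0.081 in the fifth, and at 1.05 to 3.35 CPM in the old ones. Its fitted difference of 6.66 (adjusted p = 2.101e-05) depends on the prior count that stands in for the zeros, and it was 9.26 without middle-aged replicate 5. For these segments the direction was the same in every bladder, while the size was set by few counts or by 1 library.

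**Figure D5:**
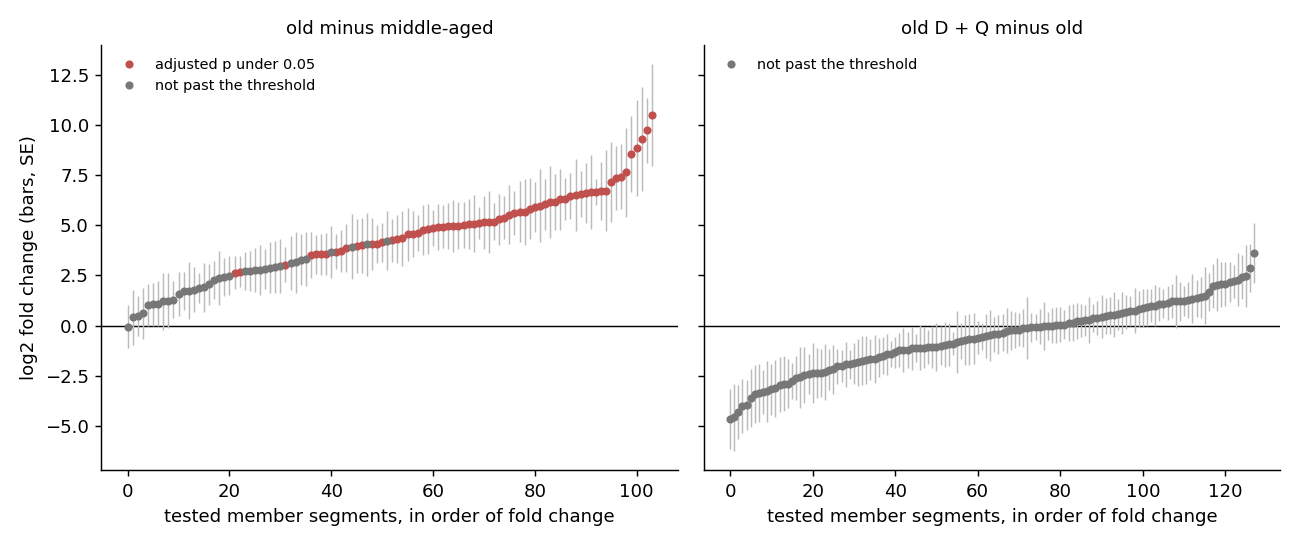
Log2 fold change (points) with its standard error (bars) of every member tested, in order of size, for old minus middle-aged and D + Q minus old bladders, with members past the adjusted threshold in red. Of the 104 members on the left 103 lie above 0 and 67 are red, while the 128 on the right lie on both sides of 0 and none is red.

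Other genes of the same loci and of lymphoid cells moved with the V segments from middle-aged to old. Of 12 constant region genes 10 were called higher. They included Ighm (4.69, adjusted p = 0.000344), Igha (4.12, adjusted p = 0.00590) and Igkc (4.52, adjusted p = 0.00105), while Ighg2c (3.78, adjusted p = 0.0728) and Ighg3 (3.99, adjusted p = 0.0809) did not pass. Of 14 J segments 10 were tested and 10 were called higher. None of the 17 D segments, which are very short, passed the filter, and all were at 0 in young and middle-aged bladders. Of the genes for V(D)J recombination and the surrogate light chain, which act in developing B cells, 1 of 7 passed the filter, namely Vpreb3, which rose by 1.29 (adjusted p = 0.0238).

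Marker lists of B cells (9 of 10 called higher), plasma cells (8 of 9 tested), germinal center (3 of 4 tested), T cells (6 of 6), macrophages (3 of 4) and lymph node stroma and vessels (2 of 2 tested, of 5 in the table) rose in the same comparison. Urothelial genes had 3 of 6 called lower and detrusor muscle genes 1 of 4. The summed B cell markers were at 4.08 to 7.14 CPM in young, 7.57 to 15.7 in middle-aged and 88.5 to 272.3 in old bladders, and the summed plasma cell markers at 447.6 to 529.2, 505.1 to 591.5 and 677.3 to 1517. In young bladders the plasma cell sum came mostly from Sdc1 and Xbp1, with 7761 and 4732 counts in replicate 1, where Jchain had 27. Jchain alone averaged 1.35 CPM in young, 15.9 in middle-aged and 286.2 in untreated old bladders. The lymph node list was at 0.598 to 2.59, 2.33 to 6.65 and 12.1 to 34.1 CPM. In each old untreated bladder most of that sum came from Cxcl13, with 364 to 881 counts. Ccl21a, which marks lymph node stroma, had no count in the old untreated bladders, while Glycam1, of high endothelial vessels, had between 6 and 299. The part of these cell types in the levels of the V segments was not tested.

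Among the old groups, edgeR called no member in the 5 comparisons that were run, while DESeq2 called between 1 and 10 in each, as given further on. Vehicle and water were not compared with each other. The D + Q bladders had V levels from 571.1 to 2797 CPM with a median of 2210, the water bladders 1961, 1589, 1270, 1108 and 1065, and the vehicle bladders the values given above. All ranges overlapped that of untreated old bladders. On the log2 scale the total V level differed by -0.08 between D + Q and untreated old bladders (10.8 in each group; exact permutation p = 0.896), by 0.75 between D + Q and vehicle (exact permutation p = 0.771) and by 0.35 between D + Q and water (exact permutation p = 0.420). The adjusted p was 0.964 for each. Without vehicle replicate 1 the difference from vehicle was -0.67 (exact permutation p = 0.0952, adjusted p = 0.422). The smallest p that the designs allow is 0.00217 for 6 against 6 bladders, 0.00433 for 6 against 5 and 0.00952 for 6 against 4.

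The number of member segments detected ran from 123 to 161 with a median of 150.5 under D + Q. It was 138, 164, 108, 149 and 155 under water and 64, 159, 166 and 156 under vehicle. Over all V rows D + Q differed by -5.83 from untreated (exact permutation p = 0.675), by 10.0 from vehicle (exact permutation p = 0.743) and by 2.30 from water (exact permutation p = 0.862), each with an adjusted p of 0.964. Without vehicle replicate 1 the difference from vehicle was -16.5 (exact permutation p = 0.190, adjusted p = 0.656). At 500 V counts the D + Q bladders gave from 53.4 to 85.9 segments with a median of 68.9, and the differences of -0.62 from untreated, -4.06 from vehicle and 3.62 from water had exact permutation p of 0.922, 0.590 and 0.688.

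Dominance and chain shares were likewise spread within each old group. The largest heavy share under D + Q ran from 17.4% to 71.8% with a median of 23.8%. It was 35.5%, 16.7%, 74.7%, 37.9% and 16.9% under water, and 43.8%, 14.1%, 32.8% and 14.3% under vehicle. D + Q exceeded untreated bladders by 13.1 percentage points (33.6 ± 20.5 against 20.6 ± 6.77, SD; exact permutation p = 0.165, adjusted p = 0.728), and without D + Q replicate 1 that difference was 5.43. The largest kappa share differed by 1.87, the heavy percentage by -0.02 and the lambda percentage by -1.91 points between D + Q and untreated bladders, with adjusted p of 0.964, 0.989 and 0.964 (exact permutation tests).

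In the fits over all genes 128 members were tested between D + Q and untreated old bladders, 146 between D + Q and vehicle, and 131 between D + Q and water. The share of all genes called in either direction was 0.0% in each of them, as it was for vehicle against untreated, where 149 members were tested. Between water and untreated bladders 129 members were tested and 0 called, where 0.487% of all genes were called higher and 0.516% lower. At an unadjusted p under 0.05 there were 25 members for D + Q against untreated bladders, where 12.9% of all genes tested passed, 13 against vehicle (4.18% of all genes) and 23 against water (7.82%). Against untreated bladders there were 17 for vehicle (8.39% of all genes) and 33 for water (16.0%). DESeq2 called 1 of 111 members lower for D + Q against untreated bladders, where it called 0.982% of all genes lower, 1 of 102 lower for vehicle (0.338% of all genes) and 10 of 102 lower for water (2.64%). For D + Q it called 1 of 133 members higher against vehicle (0.0625% of all genes) and 2 of 113 higher against water (0.388%). These comparisons share their D + Q or untreated bladders and are not independent of each other.

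The leading segments had wide errors in these comparisons. Igkv3-2 had a log2 difference of -0.90 ± 0.577 (SE) between D + Q and untreated bladders, -0.46 ± 0.940 between D + Q and vehicle and -0.25 ± 0.582 between D + Q and water, with edgeR adjusted p of 0.507, 0.999 and 0.949. Ighv1-53 had -0.07 ± 0.650, -0.13 ± 0.977 and 0.44 ± 0.596. Ighv1-55 and Igkv12-89 were at 2.40 ± 1.09 and 2.47 ± 1.52 between D + Q and untreated bladders (adjusted p = 0.381 and 0.494), with the highest level of both in D + Q replicate 1. Ighv1-75 was at -3.33 ± 1.10 (adjusted p = 0.300). The summed B cell markers ran from 48.1 to 160.7 CPM under D + Q, 46.8 to 452.4 under water and 54.8 to 453.3 under vehicle, and no gene of that list was called in any of these comparisons.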

How the data were processed

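Whole bladders of 32 female mice in 6 groups were measured. Per the labels, RNA was extracted with NucleoSpin RNA columns and libraries were made with TruSeq Stranded Total RNA. Raw counts per gene were deposited by the authors, made with STAR 2.7.3 on mm10 and featureCounts of Subread; whether counting used strand is not given in the sources used here. The table also holds the exon length of each gene, in the authors' other column, which was used only to express counts per length; a deposited table of TPM was not used. No normalization had been applied to the counts.

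Groups came from the sample labels. Counts were scaled with TMM factors to CPM, with 127 rows that have a gene identifier but no symbol kept. Differences per gene were tested with edgeR 4.0.16 (R 4.3.3; quasi-likelihood, filterByExpr, the bladders of the compared groups) with Benjamini-Hochberg adjustment over all genes tested and a threshold of 0.05. Per-bladder measures (V level over all V rows, segments at 3 or more counts, segments expected in 500 V counts, largest shares, chain shares from 100 counts up) were tested between groups by exact two-sided permutation over bladders, 31 of 35 planned tests having enough bladders. Germline sequences and coordinates were read from the GENCODE transcripts and gene models for GRCm38 and compared with Biopython 1.88. The scripts were checked on simulated data. No 2 libraries were identical.

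Named segments were the 12 highest by mean CPM, the largest heavy and kappa segment of a bladder from 20% up where the chain had at least 100 counts, the lambda segments, the 3 largest non-overlapping changes per comparison, Igkv4-74, and those next to the limit of 100. The members, lists and tests were chosen with earlier results of these data known. Alternatives were DESeq2 1.42.0, no filter, all groups in one fit, a replicate block, library sizes without immunoglobulin genes, other floors, pseudocounts and depths, thinned libraries, counts per length, and leaving out each bladder. A count over all V rows, whose tests are given in place of those over the members, and the equal-depth count without the largest segments were added after the data were seen. Replicate numbers are those of the sample titles; for some bladders of the middle-aged, water and vehicle groups the count table's columns carry another number. They were not taken as pairing the bladders. The list for class switching and hypermutation is not reported here.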

Additional observations from a re-analysis of the deposited data

Results flagged for a closer look

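In groups of 4 to 6 bladders, 107 sets of values were searched for a lowest or highest bladder lying far from the others in relation to the whole range (Dixon's criterion), and 11 were found, where chance alone gives about 1 in 20. Vehicle replicate 1 stood apart in the total V level, at 5.76 on the log2(CPM + 0.1) scale against 11.1 to 11.7 in the other vehicle bladders, in the segments detected, at 64 against 156 to 166, and in Ighv1-26, at -1.04 against 6.21 to 6.46. Water replicate 3 stood apart in the lambda percentage, at 57.6 against 1.34 to 5.01, and in Igkv1-117, at 2.02 against 3.24 to 3.65. D + Q replicate 2 had a lambda percentage of 8.23 against 1.47 to 3.04. Old untreated replicate 6 had Igkv19-93 at 8.27 against 0.20 to 3.14 in the other old bladders. Middle-aged replicate 3 had Igkv6-20 at 2.46 against -3.32 to -2.09.

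In young bladders 3 of the found values came from single libraries with reads where the rest had none (log2 of the pseudocount, -3.32). They were Igkv3-2 in replicate 1 (-2.86), Igkv19-93 in replicate 4 (-1.32) and Ighv1-76 in replicate 5 (-2.95).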

How the results depend on the processing

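Total V level and member segments detected kept their direction with age under each alternative. Leaving out 1 bladder, the total V level differed by 3.44 to 4.34 (middle-aged minus young) and 4.18 to 5.07 (old minus middle-aged), and segments detected by 46.6 to 64.3 and 73.8 to 91.6; adjusted p then reached 0.0738, as fewer bladders allow no smaller exact permutation p. With libraries thinned to the smallest total, middle-aged exceeded young bladders by 43.9 segments (adjusted p = 0.0537, permutation test). The largest kappa share, old minus middle-aged, ran from 17.4 to 22.2 points with a bladder left out, past the threshold without old replicate 3 (adjusted p = 0.0492, permutation test). Other values that changed sign were as follows: at 100 V counts, segments expected were -2.24 for old minus middle-aged and 0.14 for D + Q minus untreated; per exon length, the heavy percentage was -0.13 for D + Q minus vehicle and -0.0089 for D + Q minus water; from 1000 counts up, lambda was 3.02 points higher in old than middle-aged bladders; without each bladder's largest heavy and kappa segment, segments at equal counts were 2.71 for D + Q minus untreated and 0.076 for D + Q minus vehicle. The cause was not tested.

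Members called higher between middle-aged and young numbered 33 of 69 tested with DESeq2, where 1197 of 18759 genes were called higher. They were 34 of 161 without the filter (730 of 25006 genes) and 12 of 174 with all groups in one fit (1242 of 18093 genes). With a bladder left out they were 1 to 12, with 12 of 16 tested without middle-aged replicate 2 (389 of 16875 genes). Between old and middle-aged they numbered 111 of 185 tested without the filter, where 2373 of 25678 genes were called higher. With a bladder left out they ran from 48 of 90 (1910 of 17028 genes) to 66 of 96 (2224 of 17083 genes). Among the old groups DESeq2 called 1 (D + Q minus untreated), 10 (water minus untreated), 1 (vehicle minus untreated), 1 (D + Q minus vehicle) and 2 (D + Q minus water), and leaving out a bladder gave 0 to 1 for water minus untreated. With the replicate number as a block, 1 of 3 members tested was called between middle-aged and young, where 318 of 16676 genes were called higher. Between old and middle-aged 47 of 90 were called (1813 of 17028 genes), and 0 in the other comparisons. In no comparison did more than 1 pair of same-numbered bladders correlate above 0.1.

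Lowest and highest values with a bladder left out follow for measures that turned sign. D + Q minus untreated: total V level -0.30 to 0.31, segments detected -8.03 to 1.57, at equal counts -3.90 to 2.94, largest kappa share -3.47 to 7.42, heavy percentage -0.97 to 0.89. D + Q minus vehicle: total V level -0.67 (without vehicle replicate 1) to 1.30, segments detected -14.2 (without vehicle replicate 1) to 19.8, largest heavy share -0.23 to 13.2, largest kappa share -0.075 to 10.8, heavy percentage -0.47 to 0.67, lambda percentage -4.19 to 0.47. D + Q minus water: segments detected -5.33 to 8.67, at equal counts -2.72 to 9.38, largest heavy share -10.3 to 6.89, largest kappa share -3.82 to 9.13, heavy percentage -1.25 to 2.59, lambda percentage -13.9 to 0.12. Old minus middle-aged: at equal counts -0.47 (without old replicate 6) to 5.99, lambda percentage -2.50 to 1.43. Middle-aged minus young: heavy percentage -4.52 to 0.015.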
